A study of Mus musculus with 12 samples.

Results

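The 8 genes described here encode transcription factors of the neurons of the auditory nerve, namely Gata3, Neurod1, Neurog1, Prox1, Isl1, Myt1l, Scrt1 and Esrrg. Every feature of the arrays whose annotated gene symbol is exactly one of these 8 names was taken, which gave 20 of the 45037 probe sets tested. A probe set is a group of short probes on an Affymetrix array that reports 1 transcript, and values of different probe sets are not comparable as levels. Gata3 had 1 probe set, Neurod1, Neurog1, Isl1 and Scrt1 had 2 each, Prox1 and Esrrg had 3 each, and Myt1l had 5. The probe set with the highest mean over the arrays stands for its gene below, and the others are given beside it.

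The tissue was the modiolus of adult CBA/CaJ mice of both sexes, aged 8 to 12 weeks, which is the core of the cochlea with the spiral ganglion, the auditory nerve and its glial cells. The right ear was operated and received ouabain, which blocks the sodium potassium pump, at 3 mM in the round window niche for about 60 min, and the left ear of the same mice was the unoperated control, so that drug and surgery cannot be told apart. The 12 arrays form 4 groups of 3, with ouabain-treated and control ears at 3 days and ouabain-treated and control ears at 7 days. Each array carried RNA pooled from 2 preparations, nothing states which animals entered which pool, and p-values therefore measure the spread between pooled samples. Mice whose hearing thresholds had shifted too little after ouabain were excluded by the authors, so the ears with the weakest response are not represented.

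Neurog1 and Neurod1 are basic helix-loop-helix factors that act one after the other when neurons of the inner ear are born. They bind short DNA motifs called E-boxes together with E proteins, whereas Id, Hes and Hey proteins oppose them. Isl1, a LIM homeodomain factor, and Gata3, a zinc finger factor, take part in the later specification of spiral ganglion neurons, and Prox1 is a homeodomain factor of differentiating neurons, supporting cells and lymphatic endothelium. Myt1l, which represses genes of other lineages in neurons, Scrt1, a neuronal repressor of the Snail family, and Esrrg, an orphan nuclear receptor that drives genes of oxidative metabolism, belong to the mature neuron. Ouabain applied to the rodent cochlea is used as a model in which type I spiral ganglion neurons, the large majority of auditory neurons, degenerate.

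The promoter windows of 5 genes are shown because Isl1, Prox1, Myt1l and Esrrg fell together, while Gata3, of the same neurons, did not pass the test. Each window runs from 250 bases before to 50 bases after an annotated start in RefSeq on mouse build GRCm38.p6, reads 5′ to 3′ on the strand of the gene, and has its E-boxes in capitals. Isl1 lies at chr13:116309639-116309938 on the minus strand, the first of 2 Prox1 windows at chr1:190170778-190171077 on the minus strand, the first of 5 Myt1l windows at chr12:29528134-29528433 on the plus strand, the first of 4 Esrrg windows at chr1:187608756-187609055 on the plus strand, and Gata3 at chr2:9878551-9878850 on the minus strand.
Isl1: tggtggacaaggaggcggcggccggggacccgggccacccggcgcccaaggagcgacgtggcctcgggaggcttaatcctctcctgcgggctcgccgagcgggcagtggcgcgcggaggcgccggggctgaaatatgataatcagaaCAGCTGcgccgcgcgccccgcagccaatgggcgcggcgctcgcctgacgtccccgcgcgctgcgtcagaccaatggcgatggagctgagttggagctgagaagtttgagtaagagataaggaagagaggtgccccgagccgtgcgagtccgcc
Prox1: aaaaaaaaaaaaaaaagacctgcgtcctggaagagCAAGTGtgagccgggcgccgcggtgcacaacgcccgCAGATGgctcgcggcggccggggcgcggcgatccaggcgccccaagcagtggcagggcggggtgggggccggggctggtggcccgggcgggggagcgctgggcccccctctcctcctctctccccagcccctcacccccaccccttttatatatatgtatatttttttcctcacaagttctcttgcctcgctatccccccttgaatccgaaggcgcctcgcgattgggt
Myt1l: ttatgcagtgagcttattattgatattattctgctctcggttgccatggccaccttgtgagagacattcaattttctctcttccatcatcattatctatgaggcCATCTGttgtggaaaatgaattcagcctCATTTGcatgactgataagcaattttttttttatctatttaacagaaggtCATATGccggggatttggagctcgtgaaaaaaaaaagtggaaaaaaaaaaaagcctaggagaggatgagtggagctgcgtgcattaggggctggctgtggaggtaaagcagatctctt
Esrrg: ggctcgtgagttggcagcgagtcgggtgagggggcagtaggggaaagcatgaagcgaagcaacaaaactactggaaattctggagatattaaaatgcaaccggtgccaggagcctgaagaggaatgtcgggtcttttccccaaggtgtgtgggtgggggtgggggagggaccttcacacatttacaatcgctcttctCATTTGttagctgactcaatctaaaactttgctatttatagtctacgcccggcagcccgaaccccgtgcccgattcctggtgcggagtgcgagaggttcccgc
Gata3: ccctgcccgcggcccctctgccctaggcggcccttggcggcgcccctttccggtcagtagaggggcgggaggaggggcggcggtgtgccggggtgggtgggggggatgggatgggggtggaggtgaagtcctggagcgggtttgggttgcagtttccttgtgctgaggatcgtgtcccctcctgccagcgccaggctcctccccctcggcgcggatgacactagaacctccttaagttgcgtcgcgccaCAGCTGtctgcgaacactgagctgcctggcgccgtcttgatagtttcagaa

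Windows of 7 of the 8 genes, 15 in all, were matched, and Scrt1 was not among them. The E-box, CANNTG, was searched on both strands and occurred in 72.3% of all 32851 windows, so it is a common motif. The Isl1 and Gata3 windows each hold the E-box CAGCTG, 103 bases before the start in Isl1 and 1 base before it in Gata3. The Prox1 window holds CAAGTG and CAGATG, 215 and 179 bases before the start. CAGATG, the form of the E-box that NEUROD factors prefer, is found in 17.2% of all windows on either strand, and the Myt1l window also holds it on the other strand, as CATCTG 146 bases before the start. The Myt1l window further holds the sequence AAGGTCA, bound by estrogen-related receptors such as ESRRG and found in 4.72% of all windows, 73 bases before the start, where it overlaps the E-box CATATG. The GATA motif AGATAA, found in 11.2% of all windows, occurs at 2 places in the Myt1l window and at 1 in the Isl1 window, and TAATTA, the core of many homeodomain sites and found in 5.29% of all windows, occurs in none of the 5 shown. By base content the Isl1 window had 69.0% G and C with 37 CG dinucleotides and the Gata3 window 67.3% with 22, whereas the Myt1l window had 40.0% with 4, beside medians of 52.7% and 7 over all windows.

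The deposited values are log2 expression values normalized by the authors, and the medians of the 12 arrays lay between 6.01 and 6.09. Group means were fitted with limma to all 45037 probe sets, and a probe set was called where its p-value, adjusted over all of them by the Benjamini-Hochberg method, was under 0.05 and its fold change above 1.5. At 3 days, 11 of the 20 probe sets were called lower in ouabain-treated than in control nerves, against 6.58% of all probe sets called lower, and 0 were called higher, against 5.71%. At 7 days, 11 were again called lower, against 6.51%, and 0 higher, against 6.14%. By limma 0 of the 20 were higher at an unadjusted p under 0.05 at either day, and no share of all probe sets was taken there. By the brightest probe set, Isl1, Prox1, Myt1l, Scrt1 and Esrrg fell at both days, and Gata3, Neurod1 and Neurog1 did not pass the test at either. Counted in this way, 8.06% of all genes were called lower and 7.51% higher at 3 days, and 8.2% and 7.57% at 7 days. The gene lists below are counted alike. The median log2 fold change of the 8 genes was −2.12 at 3 days and −2.27 at 7 days, beside 0.01 and 0.03 over all 18193 genes. All 3 ouabain arrays lay below all 3 control arrays for 12 of the 20 probe sets at 3 days, against 17.4% of all probe sets, and for 14 at 7 days, against 16.9%. The tissue was measured in bulk, where fewer cells of a type and less RNA per cell cannot be told apart.

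**Figure D1:**
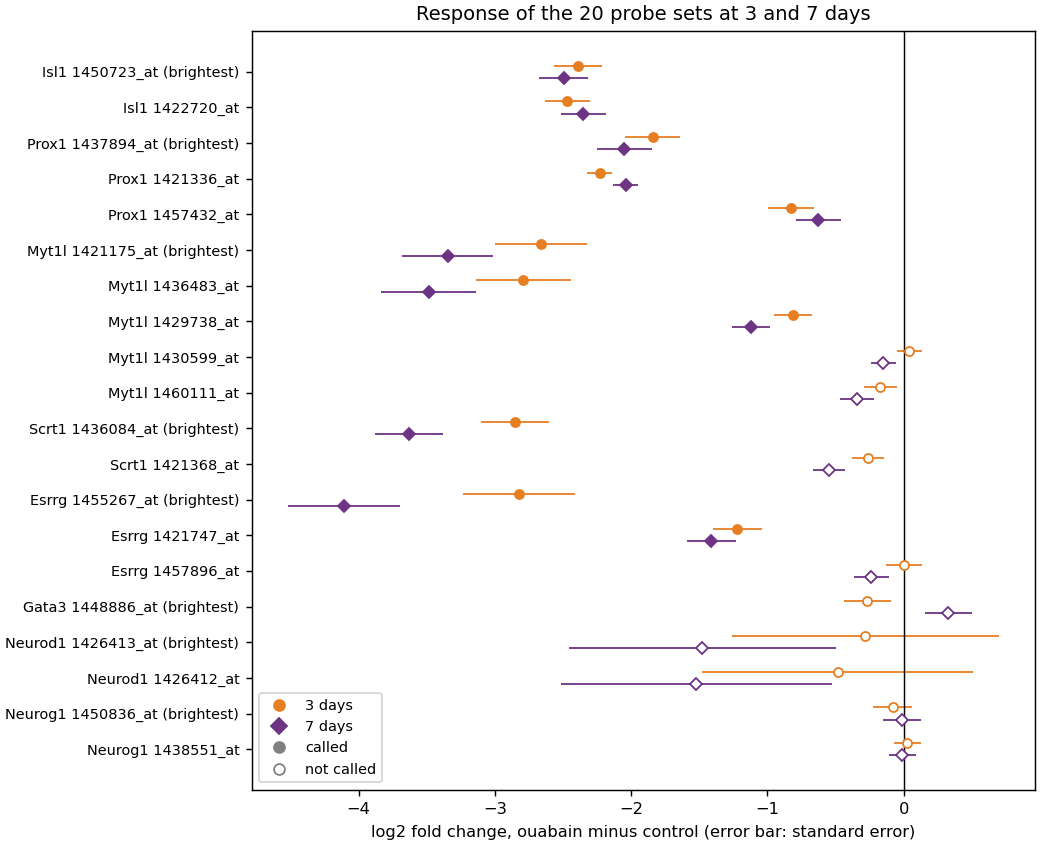
Log2 fold change of each of the 20 probe sets (rows, grouped by gene, brightest first) in ouabain-treated against control nerves at 3 days (circles) and 7 days (diamonds), with standard errors from the limma fit. Filled symbols are called. The 11 called probe sets lie left of 0 at both days, whereas those of Neurog1 and Gata3 lie between −0.27 and 0.33.

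Isl1, needed for the identity of spiral ganglion neurons, fell strongly at both days. The ouabain arrays had log2 values of 10.32, 9.91 and 9.45 at 3 days, against 12.25, 12.18 and 12.41 in controls. At 7 days they had 9.38, 9.66 and 9.59, against 11.93, 12.20 and 11.99 in controls. At neither day did the groups overlap, and the gap between them was wider than the spread within either. Isl1 was 5.24-fold lower at 3 days (log2 fold change −2.39, standard error 0.18, adjusted p = 2.46e-06) and 5.64-fold lower at 7 days (−2.50, 0.18, adjusted p = 1.84e-06). The other Isl1 probe set, 1422720_at, gave −2.47 and −2.35 and was called at both days.

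Prox1 had log2 values of 4.99, 4.82 and 5.24 in ouabain nerves at 3 days, against 6.68, 6.80 and 7.09 in controls. At 7 days the values were 5.07, 5.21 and 4.37 in ouabain nerves, against 6.86, 7.14 and 6.80 in controls. No ouabain array reached the lowest control. The factor was 3.58-fold lower at 3 days (−1.84, standard error 0.20, adjusted p = 3.76e-05) and 4.14-fold lower at 7 days (−2.05, 0.20, adjusted p = 1.69e-05). Both other probe sets were also called, 1421336_at with −2.23 and −2.04 and the dim 1457432_at with −0.83 and −0.62. The ouabain values of 1421336_at lay between 3.35 and 3.58, close to the 10th percentile of all values on the arrays (3.46 to 3.56).

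Myt1l values in ouabain nerves were 6.43, 5.17 and 5.25 at 3 days, against 8.28, 8.11 and 8.45 in controls. They were 5.05, 5.10 and 4.03 at 7 days, against 8.37, 8.00 and 7.85 in controls. The first ouabain array at 3 days kept more signal than the others, yet stood well below each control. Expression was 6.33-fold lower at 3 days (−2.66, standard error 0.34, adjusted p = 0.000101) and 10.2-fold lower at 7 days (−3.35, 0.34, adjusted p = 1.87e-05). Of the other 4 probe sets, 1436483_at (−2.79 and −3.48) and 1429738_at (−0.82 and −1.12) were called at both days. The dim 1430599_at and 1460111_at, with mean log2 values of 5.10 and 3.38, were not called at either.

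Scrt1, the neuronal Snail-family repressor, was tightly grouped in 3-day controls. Its values in ouabain nerves at 3 days were 6.53, 5.57 and 5.53, against 8.74, 8.70 and 8.74 in controls. At 7 days they were 5.62, 5.02 and 4.81 in ouabain nerves, against 8.92, 8.81 and 8.60 in controls. The groups were far apart at both days, with the first ouabain array the highest of its group each time. Scrt1 was 7.22-fold lower at 3 days (−2.85, standard error 0.25, adjusted p = 7.74e-06) and 12.4-fold lower at 7 days (−3.63, 0.25, adjusted p = 1.50e-06). The dim probe set 1421368_at, with a mean log2 value of 4.04, moved by −0.26 and −0.55. Its adjusted p at 7 days was 0.00459 but its fold change of 1.46 was under the threshold, and it was not called.

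Esrrg showed the widest difference of the 8 genes at 7 days. Ouabain nerves had log2 values of 9.34, 8.34 and 7.82 at 3 days, against 11.34, 11.34 and 11.29 in controls. At 7 days ouabain nerves had 8.17, 6.75 and 6.43, against 11.42, 11.11 and 11.14 in controls. Controls varied little (SD 0.026 at 3 days and 0.18 at 7 days), whereas the ouabain arrays had SDs of 0.77 and 0.92, with the first array again the highest. Esrrg was 7.08-fold lower at 3 days (−2.82, standard error 0.41, adjusted p = 0.000311) and 17.3-fold lower at 7 days (−4.11, 0.41, adjusted p = 1.94e-05). Probe set 1421747_at also fell, by 1.22 and 1.41 on the log2 scale, and the dim 1457896_at was not called (0.00 and −0.24).

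**Figure D2:**
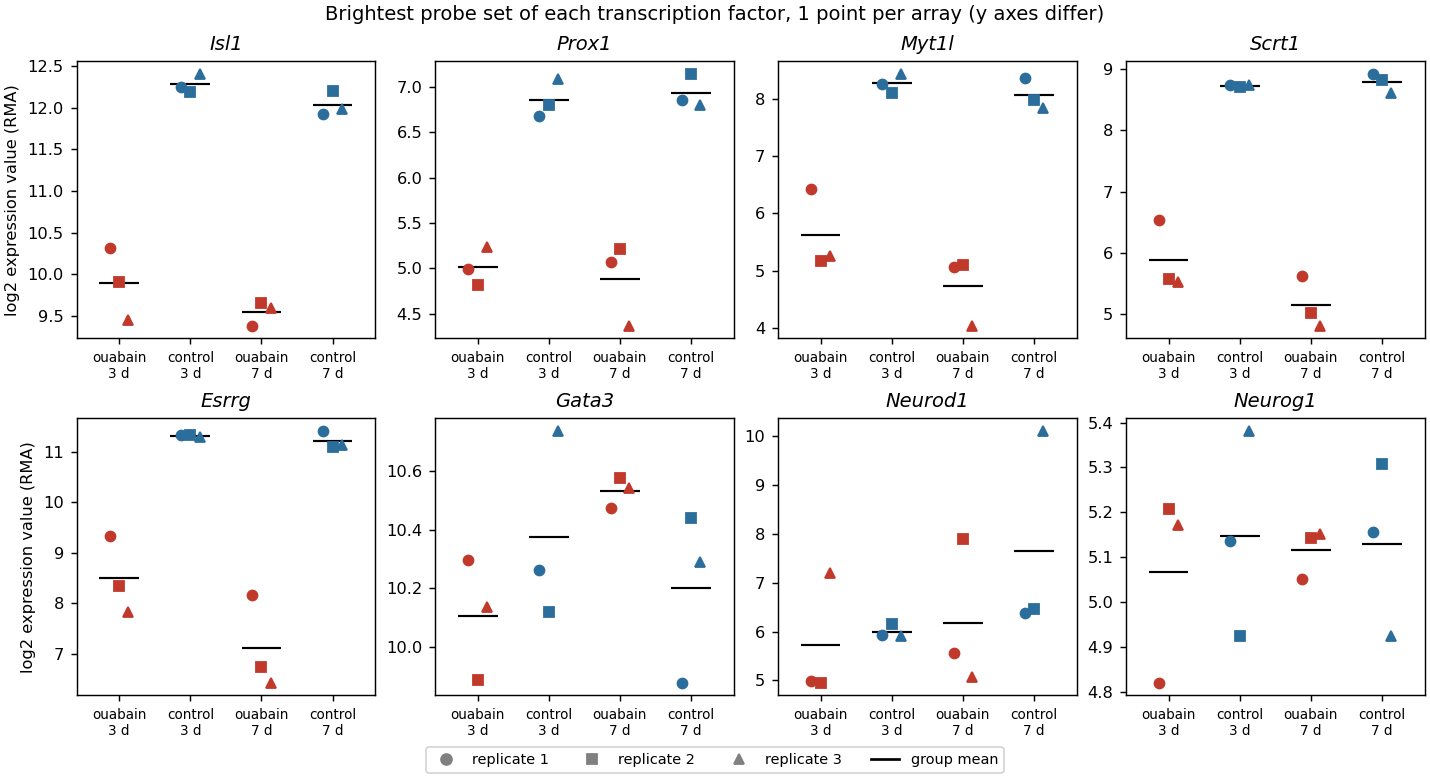
Log2 expression value of the brightest probe set of each gene on every array (points, shaped by replicate number), for ouabain-treated and control nerves at 3 and 7 days, with the group mean as a line. In the panels of Isl1, Prox1, Myt1l, Scrt1 and Esrrg all ouabain points lie below all control points, as for Esrrg at 7 days (6.43 to 8.17 in ouabain nerves, 11.11 to 11.42 in controls). The y axes differ and do not start at 0.

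Gata3 did not follow these 5 genes. Its values in ouabain nerves at 3 days were 10.30, 9.89 and 10.14, against 10.26, 10.12 and 10.74 in controls, and the groups overlapped. At 7 days they were 10.47, 10.57 and 10.54 in ouabain nerves, against 9.88, 10.44 and 10.29 in controls, and here each ouabain array stood above each control. The log2 fold change was −0.27 at 3 days (95% interval −0.65 to 0.11, adjusted p = 0.345) and 0.33 at 7 days (−0.05 to 0.71, adjusted p = 0.206). The intervals leave out a decrease of the size of any of the 5 fallen genes. Supporting cells of the cochlea and T cells are known to express Gata3 too. The supporting cell list had 0 of 11 genes called by limma at 3 days (3 at an unadjusted p under 0.05) and 2 of 11 called higher at 7 days, Sox9 (0.67) and Otoa (0.78). Its summed linear signal was 23300.1 to 27516 in ouabain and 25709 to 28515 in control nerves at 3 days, and 29191 to 32093 in ouabain and 22619.9 to 27346 in control nerves at 7 days. Such a sum, here and for the lists below, follows mainly the brightest probe sets. In this list they are Epyc, Gjb6 and Gjb2, with mean log2 values of 13.12, 12.77 and 12.55. Of 7 measured T cell genes, 0 were called by limma at 3 days (1 at an unadjusted p under 0.05) and 1, Il7r, was called higher at 7 days, with summed signals of 313 to 346 in ouabain and 295 to 308 in control nerves at 3 days, and of 346 to 359 in ouabain and 306 to 366 in control nerves at 7 days. Only 2 of the 7 T cell genes stood above a log2 value of 6 on at least 3 arrays, so the T cell sums rest largely on dim probe sets. The part of supporting cells and T cells in the Gata3 values was not tested.

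Neurog1, which starts neurogenesis in the embryonic ear and is then switched off, was near the lower range of the arrays. Its brighter probe set had values of 4.82, 5.21 and 5.17 in ouabain nerves at 3 days, against 5.14, 4.92 and 5.38 in controls. At 7 days it had 5.05, 5.14 and 5.15 in ouabain nerves, against 5.16, 5.31 and 4.92 in controls. All 4 groups overlapped. The log2 fold changes were −0.08 at 3 days (95% interval −0.39 to 0.23, adjusted p = 0.774) and −0.01 at 7 days (−0.32 to 0.29, adjusted p = 0.962). The other probe set, 1438551_at, had a mean log2 value of 3.83, below the lower quartile of every array (4.26 to 4.38). No increase of Neurog1 was detected. The brighter probe set had a mean log2 value of 5.11, below the median of every array (6.01 to 6.09). Its intervals describe the probe signal, and a change of the transcript can be hidden at that level.

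Neurod1, the factor downstream of Neurog1, was the most uneven of the 8 genes. Ouabain nerves at 3 days had log2 values of 4.998, 4.95 and 7.21, against 5.93, 6.16 and 5.91 in controls. At 7 days ouabain nerves had 5.56, 7.90 and 5.07, against 6.39, 6.46 and 10.11 in controls. The arrays that stood apart from their groups were 3, namely ouabain replicate 3 at 3 days, ouabain replicate 2 at 7 days and control replicate 3 at 7 days. On all 12 arrays Neurod1 was not called, with log2 fold changes of −0.28 at 3 days (standard error 0.98, adjusted p = 0.898) and −1.48 at 7 days (0.98, adjusted p = 0.322). The second probe set, 1426412_at, was high on the same 3 arrays (6.34, 7.08 and 9.29, beside 3.97 to 5.59 on the others) and was not called either (−0.48 and −1.52).

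Cerebellar granule cells are neurons of the brain that express Neurod1 strongly, and the brain adjoins the cochlea where the nerve enters it. The same 3 arrays had the highest values of Cbln3 and Gabra6, a secreted protein and a receptor subunit typical of granule cells. Cbln3 was 6.83 to 9.59 on the 3 arrays, beside 3.76 to 4.99 on the other 9. Gabra6 was 8.01 to 11.12 on the 3 arrays and 3.85 to 6.07 on the other 9. A list of 12 granule cell genes was written after these values were seen, 11 of them were measured, and 3 (Cbln3, Gabra6 and Grm4) were higher on each of the 3 arrays than on any of the others. The remaining genes of the list overlapped between the 3 arrays and the other 9. Cbln1, for example, was 8.79 to 11.07 beside 8.35 to 10.02, and Zic2 was 10.75 to 10.92 beside 10.34 to 11.12. The mean log2 value over the 11 genes was 7.52 on the 3-day ouabain array, 7.76 on the 7-day ouabain array and 8.81 on the 7-day control array, beside 6.59 to 7.16 on the other 9. That mean includes Cbln3 and Gabra6, by which these arrays already stood apart, so it is not independent of them. The part of cerebellar tissue in the Neurod1 values was not tested.

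A fit without the 3 arrays with the highest Cbln3, chosen after seeing the data, left 2 ouabain and 3 control arrays at 3 days and 2 of each at 7 days. In it Neurod1 was 4.998 and 4.95 in ouabain nerves at 3 days and below each control, and at 7 days 5.56 and 5.07 in ouabain nerves, against 6.39 and 6.46 in controls. The log2 fold changes were −1.02 at 3 days (standard error 0.15, adjusted p = 0.00158) and −1.11 at 7 days (0.16, adjusted p = 0.00165), and probe set 1426412_at gave −1.18 and −1.17. The 3 arrays left out are also those with the highest Neurod1. Leaving them out narrows the Neurod1 spread by itself, so these limma p-values are no independent test of Neurod1. Both Neurod1 probe sets were then called lower at both days. With them, 13 of the 20 probe sets were called lower at 3 days, against 5.98% of all probe sets in the same fit, and 14 at 7 days, against 6.69%, where 1421368_at of Scrt1 was added. By gene, 6 of the 8 were called lower at each day, with Neurod1 as the gene added, and no share of all genes was taken in this fit. The 5 genes called on all 12 arrays stayed called, and Isl1, for example, gave −2.17 and −2.58.

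**Figure D3:**
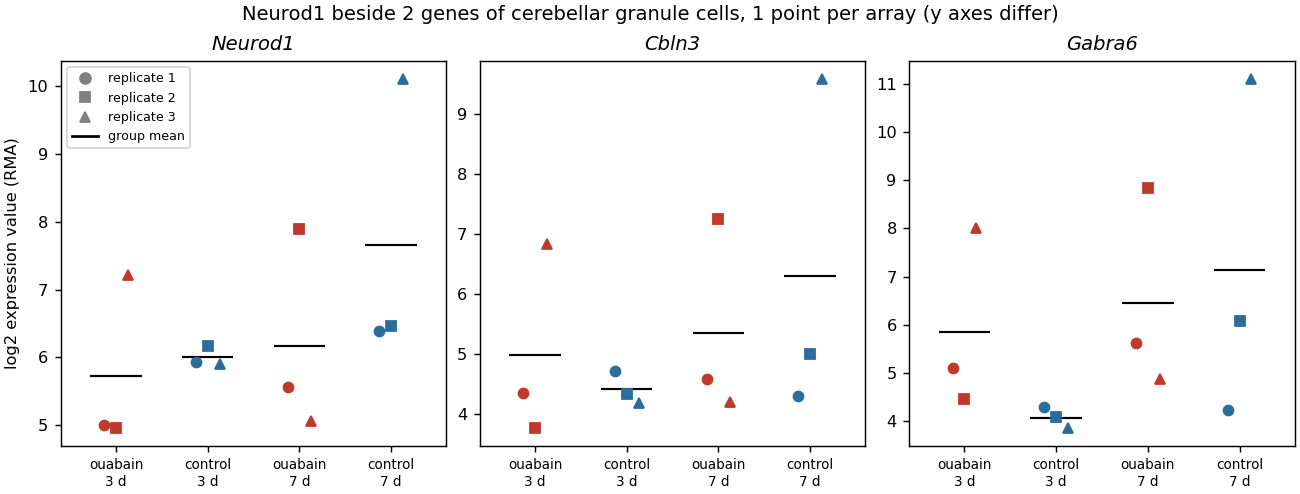
Log2 expression values of Neurod1 and of the granule cell genes Cbln3 and Gabra6 on every array (points, shaped by replicate number), for ouabain-treated and control nerves at 3 and 7 days, with the group mean as a line. The highest 3 points are the same arrays in each panel, and for Cbln3 they lie at 6.83 to 9.59, above 3.76 to 4.99 on the other 9.

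The responses at 7 and 3 days were then set against each other. At an adjusted p under 0.05 for the difference itself, 0 of the 20 probe sets differed, against 0.853% of all probe sets. By limma 3 had an unadjusted p under 0.05, a count for which no share of all probe sets was taken. Those 3 were the brightest probe sets of Esrrg, Scrt1 and Gata3. The 7-day response minus the 3-day response was −1.29 for Esrrg (standard error 0.58, adjusted p = 0.388), −0.78 for Scrt1 (0.36, adjusted p = 0.388) and 0.59 for Gata3 (0.25, adjusted p = 0.333). When the first ouabain array of both days was left out, the difference for Esrrg was −1.39 (0.23, adjusted p = 0.0260) and passed the threshold, while Scrt1 gave −0.69 (adjusted p = 0.0862). Among the ouabain arrays of a day, Esrrg and Scrt1 were highest on the arrays left out. Their removal narrows the spread of these genes by itself, and 2 ouabain arrays a day remained, so this fit is no independent test. For Isl1 and Prox1 the differences were −0.11 and −0.21, with adjusted p-values of 0.913 and 0.822. Between the control nerves of 7 and 3 days, 0 of the 20 probe sets were called, against 0.0111% of all probe sets. There 2 had an unadjusted p under 0.05 by limma, again with no share of all probe sets taken.

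The fall of the 5 genes was read beside a list of 17 genes of spiral ganglion neurons, such as Tubb3, Nefh and Rbfox3. Of these, 16 were called lower at each day, against 8.06% and 8.2% of all genes, and Kcna1 was not. Without the 3 arrays with the highest Cbln3, 14 were called lower at 3 days, since Tubb3 (−2.01, adjusted p = 0.0592) and Snap25 (−1.97, adjusted p = 0.0549) no longer passed, and 16 at 7 days. Their summed linear signal was 17323 to 34542 in ouabain and 81363 to 85844 in control nerves at 3 days, and 11473 to 19868 in ouabain and 73770.4 to 82728 in control nerves at 7 days. The median log2 difference of the 17 genes from the control mean of the same day was −1.45, −2.71 and −2.80 on ouabain replicates 1 to 3 at 3 days, and −2.33, −3.60 and −3.73 at 7 days. For the 8 transcription factors it was −1.86, −2.20 and −2.23 at 3 days and −2.38, −2.05 and −2.58 at 7 days. By the 17 genes the first ouabain array kept the most neuronal signal at both days. Among the ouabain arrays of a day, Esrrg and Scrt1 were highest on it at both days. Isl1 and Myt1l were highest on it at 3 days, while at 7 days Isl1 was lowest on it and Myt1l lay between the others. Prox1 lay between the others at both days.

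Hair cells of the cochlea were followed by 10 measured genes, of which 0 were called by limma at either day (0 and 1 at an unadjusted p under 0.05), with medians of −0.04 and 0.04. Their summed signal was 1983 to 3243 in ouabain and 2420.4 to 3302 in control nerves at 3 days, and 2489 to 3085 in ouabain and 2070 to 2885 in control nerves at 7 days. Of 5 measured genes of lymphatic endothelium, a cell type that depends on Prox1, 2 were called higher at 3 days and 3 at 7 days, and 0 were called lower. They were Lyve1 (2.14 and 0.78) and Reln (1.96 and 0.76), and Pdpn, which was called at 7 days (0.77) and was higher on all ouabain arrays at 3 days without passing the test (0.25). The responses of Pdpn at the 2 days gave a difference that did not pass its own test (0.52, adjusted p = 0.0941). The summed signal was 6451 to 8085 in ouabain and 3074 to 3362 in control nerves at 3 days, and 5209.7 to 6098 in ouabain and 3123 to 3529 in control nerves at 7 days. Macrophages and fibroblasts are known to carry some of these markers too. Flt4 (0.07 and 0.23) and Mmrn1 (0.14 and 0.01) were not called. The part of lymphatic endothelium in the Prox1 values was not tested. Of 6 genes of central glia, 2 were called higher at each day and 0 lower, with summed signals of 8292 to 10925.5 in ouabain and 5895 to 9316 in control nerves at 3 days, and of 10877 to 13230.2 in ouabain and 6214 to 9535 in control nerves at 7 days. Without the 3 arrays with the highest Cbln3, 0 of these 6 were called at 3 days and 3 at 7 days, while the hair cell gene Atoh1 (−0.63) became called lower at 7 days and the T cell gene Il7r (0.59) higher at 3 days. Myelinating Schwann cell genes, 7 measured, had summed signals of 44179 to 44421 in ouabain and 50898 to 52768 in control nerves at 3 days, and of 39565 to 43233 in ouabain and 49055 to 51005 in control nerves at 7 days, with 1 called lower and 1 higher at 3 days and 3 lower and 2 higher at 7 days.

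**Figure D4:**
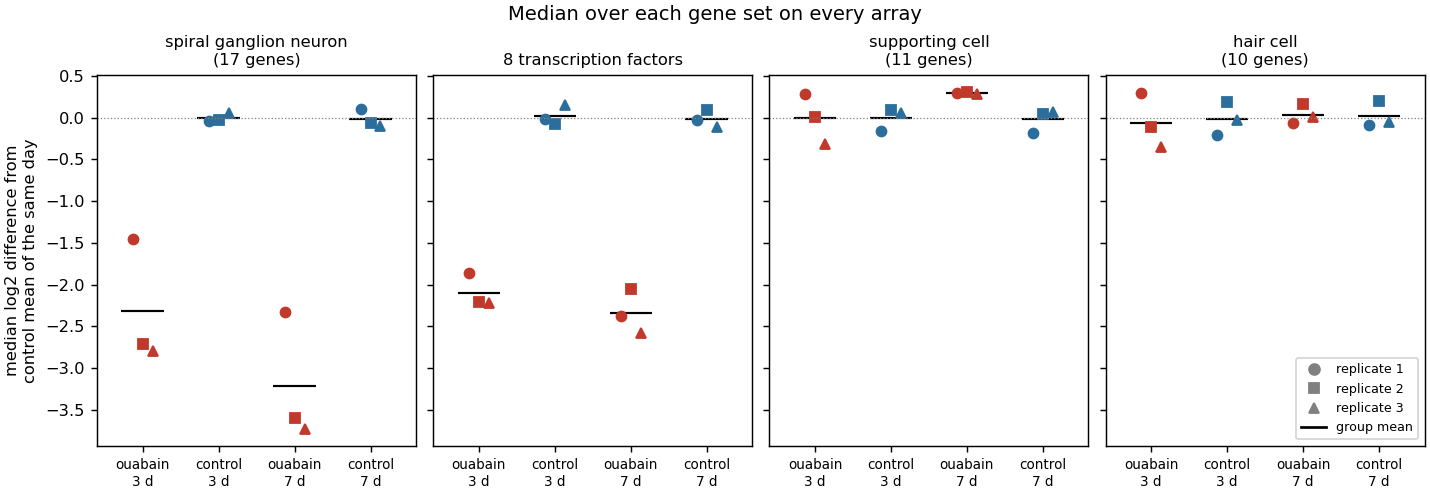
Median log2 difference from the control mean of the same day over the genes of each set (panels), on every array (points, shaped by replicate number), with the group mean as a line. The medians of the 17 neuronal genes and of the 8 transcription factors lie at −1.45 or lower on every ouabain array, although single genes of both sets do not. The first ouabain array is the highest of its group in the neuronal panel (−1.45 at 3 days and −2.33 at 7 days). The hair cell points lie on both sides of 0.

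Relatives of the 8 factors from the same gene families were examined in the same fit. Of 17 genes, 3 were called lower and 0 higher at 3 days, and 3 lower and 2 higher at 7 days, with medians of −0.09 and −0.18. Over all genes, 8.06% were called lower and 7.51% higher at 3 days, and 8.2% and 7.57% at 7 days. Myt1, a zinc finger factor related to Myt1l, fell at both days (−1.64 and −1.70), as did Scrt2, the close relative of Scrt1 (−1.11 and −0.97). Isl2, which is paired with Isl1 in many sensory and motor neurons, fell at 3 days (−0.76) and was not called at 7 days (−0.48). Esrra, the widely expressed relative of Esrrg, was called lower at 7 days (−0.78) and not at 3 days (−0.51). Snai1 and Snai2, the founding Snail factors of migrating cells, were called higher at 7 days (0.84 and 1.15) and not at 3 days (0.29 and 0.25). Neurod2, Neurod4, Neurod6, Neurog2 and Neurog3 were not called at either day. Without the 3 arrays with the highest Cbln3, Snai2 had a log2 fold change of 1.197 at 7 days but no longer passed the test (adjusted p = 0.0587), and St18, also of the Myt1 family, was called higher at 3 days (0.99).

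Of the partners, cofactors and inhibitors of these factors, 4 of 23 were called lower and 1 higher at 3 days, and 4 lower and 5 higher at 7 days, with medians of 0.01 and 0.39. Zfpm2, a cofactor that binds GATA proteins, fell at both days (−2.58 and −2.67). Ppargc1a and Ppargc1b, coactivators through which estrogen-related receptors switch on mitochondrial genes, were lower by log2 fold changes of −1.25 and −2.01 for Ppargc1a and −1.14 and −1.12 for Ppargc1b. Hey2, a Notch-responsive repressor, also fell (−1.10 and −1.21). Its relatives Hey1 (0.60) and Hes1 (0.72) were called higher at 7 days, together with the E protein genes Tcf3 (0.66) and Tcf4 (0.65), whose products pair with Neurod1 and Neurog1. At 3 days these genes were also higher on all ouabain arrays but not called (Hey1 0.33, Hes1 0.22, Tcf3 0.55 and Tcf4 0.44). None of their differences between the days passed the limma test. Sin3b, a corepressor, was higher at both days (1.07 and 0.59). The LIM cofactor gene Ldb1 (0.09 and 0.22) and Lmo4 (−0.02 and 0.01), which compete for or bridge LIM homeodomain proteins, were not called. Rest, the repressor of neuronal genes in other cells, was higher on all ouabain arrays at both days (0.48, adjusted p = 0.00719, and 0.58, adjusted p = 0.00238) but stayed under the fold threshold. Without the 3 arrays with the highest Cbln3, Rest (0.62, adjusted p = 0.0227) and Ldb2 (0.83), another LIM cofactor gene, were called higher at 7 days, and higher calls there numbered 7.

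Among 19 measured genes of 22 listed as other transcription factors of inner ear neurons, 4 were called lower and 2 higher at 3 days, and 3 lower and 3 higher at 7 days, with medians of 0.01 and 0.03. Pou4f1, a POU homeodomain factor of sensory neurons, fell at both days (−2.61 and −3.60), as did Bcl11a (−2.47 and −3.01), a zinc finger factor, and Rxrg (−1.39 and −1.30), a retinoid receptor. Ebf3 fell at 3 days (−0.62) and was not called at 7 days (−0.30). Zeb2 (2.39 and 1.90) and Sox4 (1.21 and 0.95) were higher at both days. Runx1 was called higher at 7 days (0.82) and not at 3 days (0.19). All of these are also expressed outside neurons. Without the 3 arrays with the highest Cbln3, 2 of these 19 genes were called lower at 3 days, since Pou4f1 (−2.53, adjusted p = 0.0508) and Ebf3 (−0.56, below the fold threshold) were no longer called.

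For each of the 5 fallen factors, the 3 genes nearest to it in pattern were found among 12317 other genes with a mean log2 value above 6, by the root mean square of the difference over the 12 arrays, each array taken relative to its control mean. Since such likeness rests on the difference between ouabain and control that all of these genes share, it is a description. Esrrg lay nearest to Ina (0.12), a neuronal intermediate filament, Scn8a (0.13), the sodium channel of the nodes of Ranvier, and Sult4a1 (0.22), a brain sulfotransferase. Scrt1 lay nearest to Rab33a (0.12), Adam23 (0.13) and Krt222 (0.16). Myt1l lay nearest to Atp6v1g2 (0.17), a proton pump subunit of neurons, Mapk8ip2 (0.19) and Dnm1 (0.23), the neuronal dynamin of synaptic vesicle recycling. Isl1 lay nearest to Atpaf1 (0.18), Mtmr7 (0.19) and Wwox (0.19), and Prox1 to Septin3 (0.22), Mapk8ip3 (0.24) and Dipk1b (0.24).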

How the data were processed

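Total RNA of modiolus samples (the labels and the methods of the paper state different input amounts) was hybridized to Affymetrix mouse arrays. The deposited log2 expression values were made by the authors with RMA (background correction, quantile normalization and probe set summary) in Affymetrix Expression Console, with detection calls by MAS5 and no version given. They were used unchanged, and 0 value columns lacked a sample. Of 45101 rows, 64 control rows were left out, 34945 tested rows carry exactly 1 gene symbol, 932 several and 9160 none. limma 3.58.1 in R 4.3.3 fitted 4 group means, and Python 3.11.15 was used for promoters and figures. The methods of the paper used Student's unpaired test with thresholds of 0.05 for p and 1.5 for the fold change. The alternatives were other tests, thresholds, filters, normalizations and weights, a replicate block, arrays left out and the mean over probe sets. The fit was tested on simulated data. Genes named beside the 8 came mostly from those called in a list, up to 4 more with large changes, and the 3 nearest in pattern. Not every called gene of the neuron, Schwann cell and central glia lists is named. Neurod2, Neurod4, Neurod6, Neurog2, Neurog3, Ldb1, Ldb2, Lmo4, Rest, Flt4, Mmrn1, St18, Atoh1, Cbln3, Gabra6 and Grm4 were chosen after values were seen. The 8 genes and all lists were chosen with earlier results of these data known. Only 3 arrays a group limit the precision.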

Additional observations from a re-analysis of the deposited data

Results flagged for a closer look

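Gata3 drew attention because its ouabain arrays lay on opposite sides of the control mean at the 2 days. All 3 ouabain arrays at 3 days were below the 3-day control mean of 10.37, and all 3 ouabain arrays at 7 days were above the 7-day control mean of 10.20. The 7-day minus the 3-day log2 fold change was 0.59 (standard error 0.25), and the limma test of this difference gave an adjusted p of 0.333, so it did not pass the threshold.

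Reln, a secreted glycoprotein listed here with lymphatic endothelium, was picked out because its responses at the 2 days differed by the limma test of the difference, the 7-day log2 fold change minus the 3-day one being −1.20 (standard error 0.24, adjusted p = 0.0431). Its mean log2 value was 12.03 in ouabain and 10.07 in control nerves at 3 days, and 11.05 in ouabain and 10.29 in control nerves at 7 days.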

How the results depend on the processing

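Isl1, Prox1, Myt1l, Scrt1 and Esrrg were called lower at both days under all 27 alternatives, and 5 of the 8 genes were called at each day under every alternative except the fit without the 3 arrays with the highest Cbln3, which was added after seeing the data and called 6. In that fit Neurod1 passed the threshold (−1.02 at 3 days and −1.11 at 7 days), but the arrays left out were also those with the highest Neurod1. The count of probe sets was 11 at 3 days and 10 to 12 at 7 days with each array left out in turn, and 9 to 12 under the other alternatives chosen at the start, the lowest with a fold change above 2 or a filter on dim probe sets. The methods' t-test with equal variances called 11 at each day, and 10 and 11 after Benjamini-Hochberg adjustment. Averaging the probe sets of each gene gave smaller log2 fold changes for Myt1l (−1.28 and −1.69), Scrt1 (−1.56 and −2.09) and Esrrg (−1.35 and −1.92). The count of probe sets whose responses differ between the days became 1 (Esrrg) without the first ouabain array of both days, on which Esrrg was highest among ouabain arrays. In that fit Neurod1 at 3 days (0.0804) and Neurog1 at 3 days (0.0424) and 7 days (0.0178) changed sign without being called, and the cause was not tested. With each array left out in turn, Neurod1 gave −1.02 to 0.10 at 3 days and −2.34 to −0.25 at 7 days, and Neurog1 −0.19 to 0.0424 at 3 days and −0.12 to 0.0754 at 7 days. Equal replicate numbers of ouabain and control arrays were not taken as pairs, since the animals in each pool are not stated. For equal numbers, deviations from the group means correlated by 0.33, 0.09 and 0.18 at 3 days and 0.28, 0.16 and 0.02 at 7 days. For unequal numbers the lowest correlation was −0.27 on day 3 and −0.33 on day 7, and the highest was 0.15 on both. The equal numbers thus correlated positively throughout, and whether they share animals was not tested. The replicate block gave 11 probe sets at each day, 5576 and 5758 of all probe sets, and changed no call of the 8 genes. No value could be had for the day difference from single-day fits or unpaired tests, for the control comparison from single-day fits, for probe set counts from gene means, or for Neurog1 after the filter on dim probe sets. Signal near the lower end of an array can hide a change, and 12 of the 20 probe sets stood above a log2 value of 6 on at least 3 arrays.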
